A study of Homo sapiens with 22 samples.

Results

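Of the 2099 HOXD13 peaks called in the Ewing sarcoma line CHLA10 on chromosomes 1 to 22 and X, 595 (28.3%) lay outside every HOXD13 peak of the line A673 and outside every histone mark peak of CHLA10 itself. These 595 CHLA10-only unmarked sites were chosen by measured values. A site was kept when it shared no base with the 7160 A673 HOXD13 peaks or with the peaks of the 8 CHLA10 libraries for H3K4me1, H3K27ac, H3K4me3 and H3K27me3. The 28.3% is the rule's own outcome, and nothing is read from it. The 3 other classes of CHLA10 HOXD13 peaks, which serve below for comparison, were 1000 CHLA10-only peaks with a CHLA10 mark, 158 peaks shared with A673 without a CHLA10 mark, and 346 shared peaks with one. The A673 mark libraries took no part in the choice, and the state of the same DNA in A673 is described here.

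HOXD13 is the homeobox transcription factor at the posterior end of the HOXD cluster, known for patterning the digits and the urogenital tract. H3K27ac marks active enhancers and promoters, H3K4me1 marks enhancers whether active or primed, H3K4me3 marks promoters, and H3K27me3 marks chromatin held by Polycomb repressors. CUT&RUN cuts the chromatin next to an antibody with a tethered nuclease, so a transcription factor is seen as a short fragment and a histone mark as the fragments of the nucleosomes that carry it.

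A673 and CHLA10 are established lines of Ewing sarcoma, a tumour of bone and soft tissue driven in most cases by the EWS-FLI1 fusion, and the title of the series concerns that fusion and HOXD13 in tumour cell plasticity. The HOXD13 antibody was used at 1:20 in 1 library per line, on cells labelled with the line alone. Each mark was profiled in 2 libraries per line on cells labelled shNS, with the H3K27ac antibody at 1:50 and the other 3 at 1:100, so HOXD13 and marks were read in differently labelled cells. With 1 HOXD13 library per line there is no replicate of the HOXD13 calls, and it is not stated whether the mark replicates were separate cultures. The 4 IgG libraries carry no peak list and are not used here beyond the peak names that cite IgG as the control.

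The cell identity was checked at gene ends, meaning 1 kb on each side of either boundary of a gene, with a mark counted when both libraries of a line had a peak there. Of 12 genes of Ewing sarcoma identity, 10 carried H3K4me3 in A673 (not CCK and FLI1) and 11 in CHLA10 (not FLI1). Of 5 haematopoietic genes, none carried it in A673 and 2 in CHLA10. It was present at 2 and 3 of 5 epithelial genes, 1 and 1 of 4 endothelial genes, and 1 and 0 of 4 skeletal muscle genes in A673 and CHLA10. Over all protein-coding genes H3K4me3 was present at 64.3% in A673 and 63.9% in CHLA10. H3K27ac was present at 0 of the 12 identity genes in A673 and at 5 in CHLA10, against 7.69% and 17.7% of all genes. No gene of the other lists carried H3K27ac in both libraries of a line. The end of the HOXD13 gene itself carried H3K4me3 in all 4 libraries of both lines and H3K27ac in both CHLA10 libraries and 1 A673 library, while H3K27me3 was called there in 1 A673 library and in no CHLA10 library. The lists give peaks and no reads, so the depth behind each call is unknown. The CHLA10 HOXD13 list is a selection from a longer one, since its peak numbers run up to 209639, against 72081 in A673, and the criterion of that selection is not stated.

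Few of the sites lay at promoters, and the sequences of the promoters that were touched are shown first because they are the places where HOXD13 signal without a mark in its own line reached into a promoter window. In RefSeq's promoter windows (GRCh38.p14, from 250 bases before to 50 bases after a start), 2 sites touched a promoter. They were those of LOC105376065, a long noncoding RNA gene, on the minus strand at chr9:41565661-41565960, and of DNM2, which encodes the membrane-severing GTPase dynamin 2, on the plus strand at chr19:10717829-10718128. Each is printed 5′ to 3′ on the strand of its gene, and capitals mark the bases under the HOXD13 peak.
LOC105376065: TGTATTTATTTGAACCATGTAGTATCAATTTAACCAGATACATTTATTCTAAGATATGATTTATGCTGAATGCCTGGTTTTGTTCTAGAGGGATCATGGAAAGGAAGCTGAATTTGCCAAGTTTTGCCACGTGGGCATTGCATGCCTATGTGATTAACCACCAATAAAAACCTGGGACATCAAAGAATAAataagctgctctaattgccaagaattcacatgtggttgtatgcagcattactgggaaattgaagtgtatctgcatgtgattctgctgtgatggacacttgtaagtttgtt
DNM2: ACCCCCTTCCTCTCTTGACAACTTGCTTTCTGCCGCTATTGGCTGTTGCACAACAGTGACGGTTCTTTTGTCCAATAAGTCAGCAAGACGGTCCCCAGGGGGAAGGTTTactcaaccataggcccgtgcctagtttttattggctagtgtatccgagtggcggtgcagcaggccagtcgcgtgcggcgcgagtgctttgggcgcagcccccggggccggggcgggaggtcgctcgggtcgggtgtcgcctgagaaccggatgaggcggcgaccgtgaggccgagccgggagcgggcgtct
Neither peak covered the start itself, which lay 60 bp from the peak at LOC105376065 and 141 bp from the peak at DNM2. The peak covered 190 bases of the LOC105376065 window and had a −log10 q of 92.9 and a fold enrichment of 36.7. The peak at DNM2 covered 109 bases and was among the weakest, with a −log10 q of 4.70 and a fold enrichment of 2.80. The GC content was 37.0% over the LOC105376065 window and 63.0% over the DNM2 window. The letters CAATAAA, the form bound by posterior HOX proteins, were present on 1 of the strands in both windows. They stood at bases 162 to 168 as printed at LOC105376065, under the peak, and at bases 136 to 142 on the other strand at DNM2, outside the peak. Of 34961 promoter windows of the same length, 4.00% held CAATAAA on either strand. At LOC105376065 the HOX and PBX letters TGATTNAT also stood under the peak, at bases 57 to 64, and the RUNX letters TGTGGTT at bases 221 to 227 outside it, letters that 2.82% and 4.28% of all windows held. The CTCF core, known by name, matched outside the peak at DNM2 and in 10.6% of all windows. The HOXD13-type letters TCGTAAA, the AP-1 letters TGANTCA, the TEAD letters ACATTCC and a run of 3 GGAA units were searched on both strands as well and were in neither window. Such matches are letters in a window and not binding sites. Of the 20 promoter windows touched by CHLA10-only peaks with a mark, 5 held CAATAAA, and of the 18 touched by shared peaks with a mark, 7 did.

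The absence of a mark did not go with weak HOXD13 signal. Peak strength is the −log10 q that the authors' peak caller gave against its background, and it had a median of 28.4 over the 595 sites, with quartiles at 14.4 and 51.1 and a range from 2.04 to 209. The medians were 24.6 for CHLA10-only peaks with a mark, 26.5 for shared peaks without one and 28.7 for shared peaks with one. The fold enrichment had a median of 9.35 over the sites, against 8.03, 8.23 and 8.31 in those classes. The sites had a median length of 336 bp, from 76 to 2214 bp. When all CHLA10 HOXD13 peaks were ranked by −log10 q and cut into quintiles, the sites made up 27.9%, 27.1%, 23.2%, 29.5% and 34.0% of them from the weakest to the strongest. The largest share of unmarked sites thus fell in the strongest quintile, where 143 of 420 peaks were of this kind. These values belong to the list that the rule was applied to and are given as a description.

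**Figure D1:**
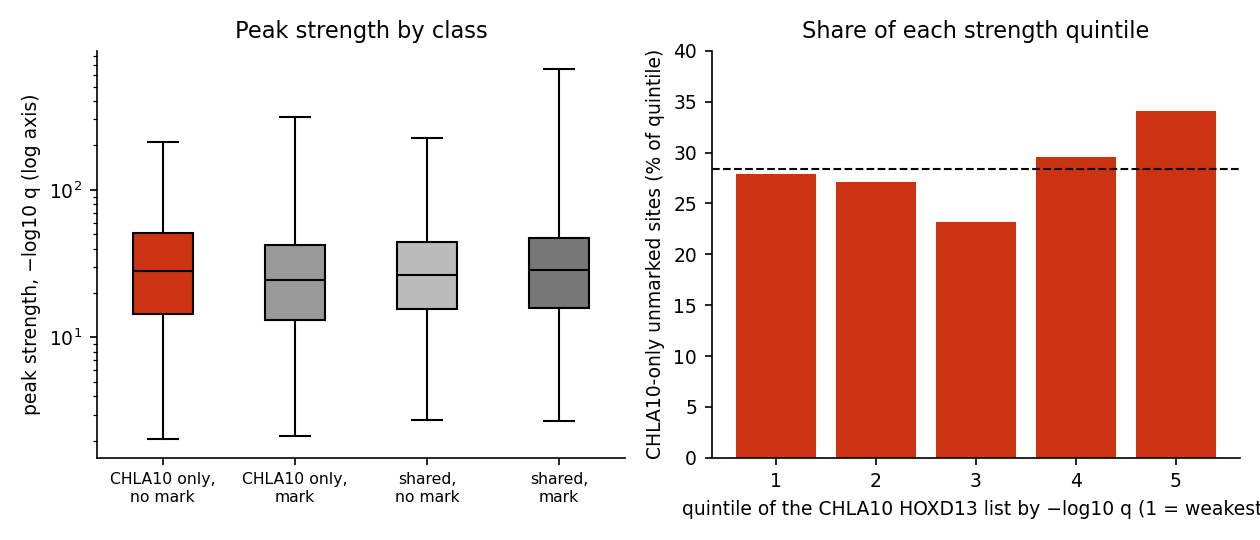
Left, −log10 q (log axis) of the 4 classes of CHLA10 HOXD13 peaks, with boxes from the lower to the upper quartile, a line at the median and whiskers to the lowest and highest peak; right, the share of each quintile of the list made up by CHLA10-only unmarked sites, with the share in the whole list dashed. The medians lie between 24.6 and 28.7, and the share is highest in the strongest quintile (34.0%).

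Among the 10 strongest sites was a remote one 932 kb from the nearest gene boundary, that of GRIK2, which encodes a kainate receptor subunit (chr6:103001637-103002133, −log10 q 195, fold enrichment 20.2). It had no A673 mark and no CHLA10 mark within 42.0 kb. Another lay inside PPTC7, a mitochondrial phosphatase gene (chr12:110565578-110565946, −log10 q 161), and in A673 it was under an H3K4me1 peak and an H3K27ac peak of replicate 1 and none of replicate 2.

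A further site of this group lay 43.1 kb from ALDH1A1, which encodes a retinaldehyde dehydrogenase that makes retinoic acid, at chr9:72996195-72996683. It had a −log10 q of 157 and the highest fold enrichment of the 595 sites, 62.8. A CHLA10 H3K27ac peak lay 130 bp away and a CHLA10 H3K4me3 peak 0.434 kb away. The ALDH1A1 gene end carried H3K27me3 in both A673 libraries and in neither CHLA10 library, and H3K4me3 in none of the 4. It also carried H3K4me1 and H3K27ac in replicate 1 of A673, and no mark was called there in any CHLA10 library.

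SERPINB1, an inhibitor of neutrophil proteases, held a site within the gene (chr6:2839030-2839460, −log10 q 147). In A673 this site was under H3K4me1 in both libraries, with −log10 q of 22.5 and 18.5, and under H3K27ac in replicate 2, at 5.41. In CHLA10 the nearest mark peak was 7.04 kb away. This is the one site among the 10 strongest with an A673 mark in both of its libraries.

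Of the rest of the 10 strongest, 5 sites had −log10 q from 121 to 134. They lay 117 kb from the neural adhesion gene NCAM2, within EXPH5, which encodes a Rab27 effector, within the growth factor gene PDGFD, 953 kb from the formin gene DIAPH2, and 226 kb from CALCRL, the receptor gene for calcitonin gene-related peptide and adrenomedullin. The EXPH5 site was under A673 H3K27me3 in replicate 2 alone, with a −log10 q of 2.33, and the other 4 had no A673 mark. The CALCRL site lay 36 bp from a CHLA10 H3K27ac peak of replicate 2. Of these 10 strongest sites, 3 thus carried any A673 mark.

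The longest sites were not the strongest. The longest, at 2214 bp, lay at chrX:268498-270711 near PLCXD1, in the pseudoautosomal region that X shares with Y, and had a −log10 q of 15.2. Next came 1448 bp inside FAM210A, 1032 bp near the R-spondin receptor gene LGR5, 1032 bp near the cytochrome oxidase gene COX7C and 988 bp inside POPDC1, with −log10 q between 14.8 and 42.2. The FAM210A site was under A673 H3K27ac in both libraries, and the other 4 had no A673 mark.

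Many of the unmarked sites bordered on a CHLA10 mark. The median distance to the nearest mark peak was 1.13 kb. These distances use the mark lists of the rule and are given for the sites alone, without the other classes beside them. Nearness to a mark is therefore not shown to be particular to the sites. Within 200 bp, 144 of the 595 sites (24.2%) had a CHLA10 mark peak, within 1 kb 291 (48.9%), and within 10 kb 454 (76.3%), while 141 (23.7%) had none within 10 kb. All but 4 had one within 100 kb. The neighbouring mark was mostly H3K27ac, which lay within 1 kb of 234 sites (39.3%) in at least 1 library and of 115 in both. H3K4me1 lay within 1 kb of 88 sites in at least 1 library and of 5 in both. For H3K4me3 the counts were 32 and 13, and for H3K27me3 5 and 2. The CHLA10 H3K4me1 replicates repeated each other poorly, with 25.3% of the shorter list overlapped by the other, against 71.9% for CHLA10 H3K27ac. This limits any CHLA10 H3K4me1 count that needs both libraries. The median distance was 5.96 kb to H3K27ac, 13.6 kb to H3K4me1, 58.1 kb to H3K4me3 and 373 kb to H3K27me3. The lists differ in extent, since those of CHLA10 H3K27ac cover 28.7 and 23.1 Mb and those of H3K4me1 9.63 and 11.3 Mb, whereas those of H3K27me3 cover 195 and 206 Mb and are still the farthest.

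**Figure D2:**
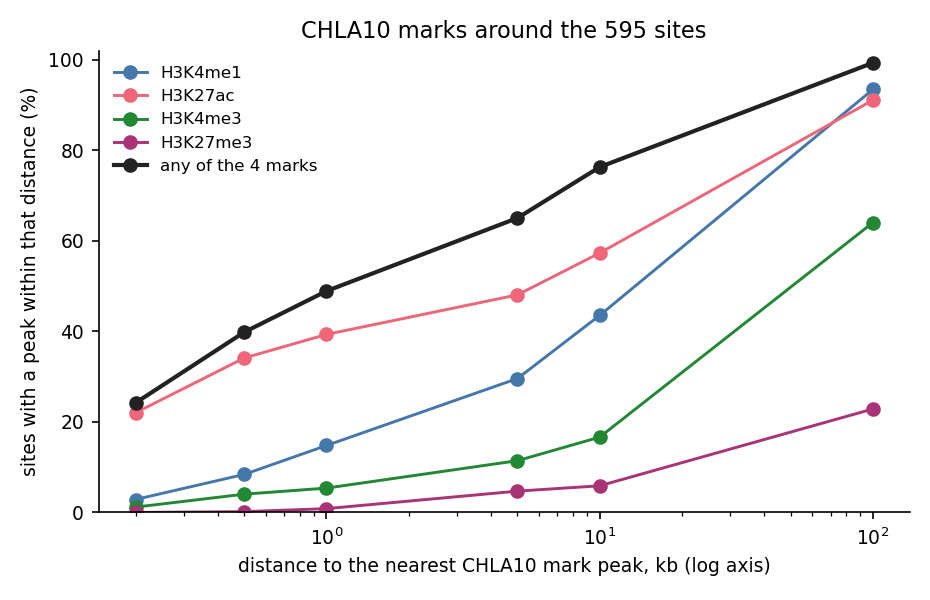
Share of the 595 sites with a CHLA10 mark peak of at least 1 library within 0.2, 0.5, 1, 5, 10 and 100 kb (log axis), for each mark and for any of the 4. H3K27ac runs closest to the line of any mark up to 1 kb, where it reaches 39.3% of 48.9%, and H3K27me3 stays at 22.9% even at 100 kb.

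Some sites sat in a gap of H3K27ac. In replicate 1 of CHLA10 H3K27ac 31 sites had a peak within 1 kb on both sides, and in replicate 2 23 did. In both libraries 10 sites were flanked in this way, and in either library 44 (7.39%, 95% interval 5.42% to 9.80%). The flanking peaks stood a median of 641 bp apart in replicate 1 and 669 bp in replicate 2. The 44 flanked sites had a median length of 225 bp, against 336 bp over all 595, and a median −log10 q of 17.1, against 28.4. A flanked site has to fit between its flanking peaks, so the short length follows in part from the selection. H3K4me1 flanked no site on both sides in either library, which allows a share of up to 0.618% in each, and H3K4me3 flanked 1.

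At the edge of the rule the distances were a few bases. Just inside, 7 sites touched a CHLA10 H3K27ac peak with no base between and none shared, among them those near MACROD2, CPNE8 and MAX, with −log10 q of 9.28, 38.2 and 74.2. Just outside, the peaks with the smallest overlap with a CHLA10 mark shared 2 bp near FSTL5, 3 bp near PDE4D and 5 bp near PCDH11X, with −log10 q of 47.1, 28.6 and 10.3. On the other side of the rule, the sites nearest to an A673 HOXD13 peak lay 2 bp from it near TENT5A, 3 bp near EFNA5 and 20 bp near IRS1, with −log10 q of 2.82, 5.13 and 4.56. Peaks that shared 4, 5 and 9 bp with an A673 HOXD13 peak, near TERB2, LOC124901231 and NME7, fell outside, with −log10 q of 21.1, 15.9 and 20.2. These near cases were rare on the A673 side. Only 25 sites had an A673 HOXD13 peak within 1 kb, the median distance was 121 kb, and 332 sites (55.8%) were more than 100 kb from one.

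No A673 mark overlapped most of the sites, while a window wider by 1 kb on each side held one at 50.6%. No mark of any of the 8 A673 libraries was called at 395 of the 595 sites (66.4%, 95% interval 62.4% to 70.2%), so these had no called mark in either line. An A673 mark in at least 1 library was present at 200 (33.6%, interval 29.8% to 37.6%), against 46.4% of all CHLA10 HOXD13 peaks. The share was 47.4% for CHLA10-only peaks with a CHLA10 mark, 41.8% for shared peaks without one and 67.3% for shared peaks with one. The intervals cover counting error over peaks, which are not replicates, and marks of the 2 lines are not independent of each other, so a low A673 share and the absence of CHLA10 marks by the rule cannot be told apart. The sites with an A673 mark had a median −log10 q of 25.0 and those without one 29.2.

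H3K4me1 was the commonest A673 mark at the sites. It was called at 20.2% of them in replicate 1 and 12.1% in replicate 2 (16.1% ± 5.70, SD, n = 2 libraries). In both libraries it was present at 47 sites (7.90%), against 15.9% of all CHLA10 HOXD13 peaks. Its mean share was 26.4% ± 3.82 in CHLA10-only peaks with a mark, 23.1% ± 6.71 in shared peaks without one and 40.2% ± 6.95 in shared peaks with one (n = 2 each). The SDs of the sites and of the shared unmarked peaks overlap, and within each library the share at the sites was the lowest of the 4 classes.

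H3K27ac was called in A673 at 6.55% and 4.87% of the sites (5.71% ± 1.19, SD, n = 2). Both libraries had it at 12 sites (2.02%), against 7.15% of all CHLA10 HOXD13 peaks. Shared peaks without a CHLA10 mark had 5.38% ± 3.13, which did not differ from the sites beyond the spread, and CHLA10-only peaks with a mark had 13.9% ± 1.48. The A673 H3K27ac replicates repeated each other poorly, with 23.4% of the shorter list overlapped by the other, which limits any count that needs both.

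H3K4me3 was nearly absent in A673 too. It was called at 3 sites in replicate 1 and at 1 in replicate 2 (0.336% ± 0.238, SD, n = 2), and at none in both, which allows a share of up to 0.618%, against 2.91% of all CHLA10 HOXD13 peaks.

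H3K27me3 was the one mark whose A673 share was highest at these sites. It was called at 3.70% of them in replicate 1 and 6.05% in replicate 2 (4.87% ± 1.66, SD, n = 2), and at 18 sites (3.03%, interval 1.80% to 4.74%) in both, against 2.05% of all CHLA10 HOXD13 peaks. CHLA10-only peaks with a mark had 2.50% and 3% (2.75% ± 0.354), shared peaks without one 3.16% in each library, and shared peaks with one 0.578% and 1.45% (1.01% ± 0.613). Each library of the sites was above each library of the other classes, but the gap between 3.70% and 3.16% was smaller than the spread between the 2 libraries. The count in both libraries was within counting error of that over all peaks.

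**Figure D3:**
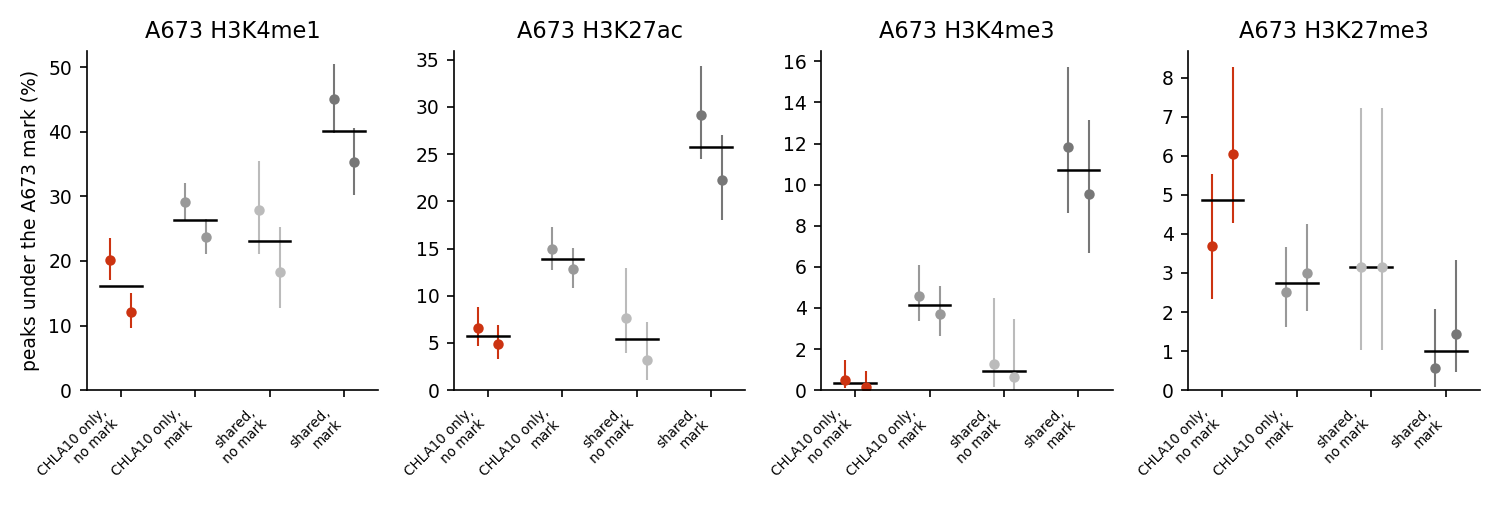
Share of CHLA10 HOXD13 peaks under each A673 mark in the 4 classes, with 1 point per A673 library (replicate 1 left, replicate 2 right), its exact 95% binomial interval and a black line at the mean of the 2 libraries. The CHLA10-only unmarked sites are lowest for H3K4me1 (20.2% and 12.1%) and highest for H3K27me3 (3.70% and 6.05%).

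The A673 marks at the sites came mostly singly. Of the 200 marked sites, 103 carried H3K4me1 alone, 32 H3K4me1 with H3K27ac, 30 H3K27me3 alone and 21 H3K27ac alone. H3K4me1 with H3K27me3 was present at 9 sites, and the remaining combinations at 5 in all. When each site was widened by 1 kb on each side, the mean shares were 27.98% for H3K4me1, 12.6% for H3K27ac, 1.51% for H3K4me3 and 5.80% for H3K27me3.

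The strongest sites under A673 H3K4me1 in both libraries were those at SERPINB1, near the actin regulator gene CARMIL1, near the homeobox gene HLX and near BBS12, a gene of the ciliary BBS complex. Their HOXD13 −log10 q was 147, 100.3, 74.4 and 69.2. The CARMIL1 site (chr6:25263668-25264083) lay 192 bp from CHLA10 H3K27ac and was under A673 H3K4me1 peaks of −log10 q 15.9 and 12.3. The HLX site lay 6.21 kb from any CHLA10 mark.

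Under A673 H3K27ac in both libraries the strongest were the sites inside CDC42EP4, a gene for a CDC42 effector, near RNF228, near the caveolin gene CAV2 and inside FGF13, with HOXD13 −log10 q of 62.9, 44.4, 34.6 and 33.6. The A673 H3K27ac peaks over the CAV2 site had −log10 q of 43.6 and 14.1 and were 2023 and 2758 bp long. In CHLA10 H3K27ac lay 93 bp from the same site. The CDC42EP4 site was under both H3K4me1 and both H3K27ac libraries of A673, with −log10 q from 16.7 to 28.5, and touched a CHLA10 H3K27ac peak without sharing a base. Of these 4, the RNF228 site was the one with no CHLA10 H3K27ac within 1 kb.

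The 4 sites under A673 H3K4me3 in 1 library were inside FGF13 and RLN2, near ACTN2 and at DNM2. The A673 H3K4me3 peak over the DNM2 site was 2221 bp long with a −log10 q of 275, and in CHLA10 an H3K4me3 peak of replicate 2 lay 182 bp away. The H3K4me3 peaks over the FGF13 and ACTN2 sites were small, with −log10 q of 4.60 and 4.80.

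The strongest sites under A673 H3K27me3 in both libraries were inside GABRA2, a GABA receptor subunit gene, near FIGN, which encodes a microtubule-severing enzyme, and inside LRRC9. Their HOXD13 −log10 q was 83.6, 78.5 and 72.6. The A673 H3K27me3 peaks over the GABRA2 site (chr4:46385805-46386239) were 14304 and 17928 bp long, and over the FIGN site (chr2:163600816-163601100) 30418 and 21131 bp. The FIGN site lay 194 bp from a CHLA10 H3K27ac peak. The FIGN gene end was called under H3K27me3 in each A673 library and under H3K27ac in each CHLA10 library. H3K27me3 was called at that gene end in a CHLA10 library too, though not in both. A gene end takes in both boundaries of the gene, so these marks need not lie at the same place. The peaks over the LRRC9 site were shorter, at 6712 and 8053 bp, with −log10 q of 2.95 and 2.61.

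How far a site lay from a CHLA10 mark went with some of its properties. The split uses the mark lists of the rule and was made after the distances were seen. It was made for the sites alone, without the other classes beside them. The 144 sites within 200 bp of a CHLA10 mark had a median −log10 q of 25.7, the 147 from 200 bp to 1 kb 17.8, the 163 from 1 to 10 kb 33.5, and the 141 beyond 10 kb 34.2. The median lengths were 285, 299, 348 and 417 bp in the same order. A site close to a mark is kept only if it ends before the mark begins, so the shorter lengths there follow in part from the rule. The mean share under A673 H3K27ac was 9.72% ± 1.96 within 200 bp and 5.44% ± 0.962, 4.60% ± 2.17 and 3.19% ± 0.501 in the farther bins (SD, n = 2 libraries). In each library the share within 200 bp was above that in each farther bin. The bin from 1 to 10 kb (6.13% and 3.07%) overlapped both of the other farther bins. The bin from 200 bp to 1 kb (6.12% and 4.76%) and the bin beyond 10 kb (2.84% and 3.55%) did not overlap each other. A673 H3K4me1 was 18.1% ± 4.91, 17.3% ± 8.18 and 17.8% ± 5.21 in the first 3 bins and 11.0% ± 4.51 beyond 10 kb, a difference within the spread between libraries although both libraries were lowest there. A673 H3K27me3 showed no order, with 3.82% ± 0.491, 6.46% ± 2.41, 3.37% ± 0.434 and 6.03% ± 3.51. Any A673 mark was present at 36.1%, 37.4%, 33.1% and 27.7% of the sites, with overlapping 95% intervals.

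**Figure D4:**
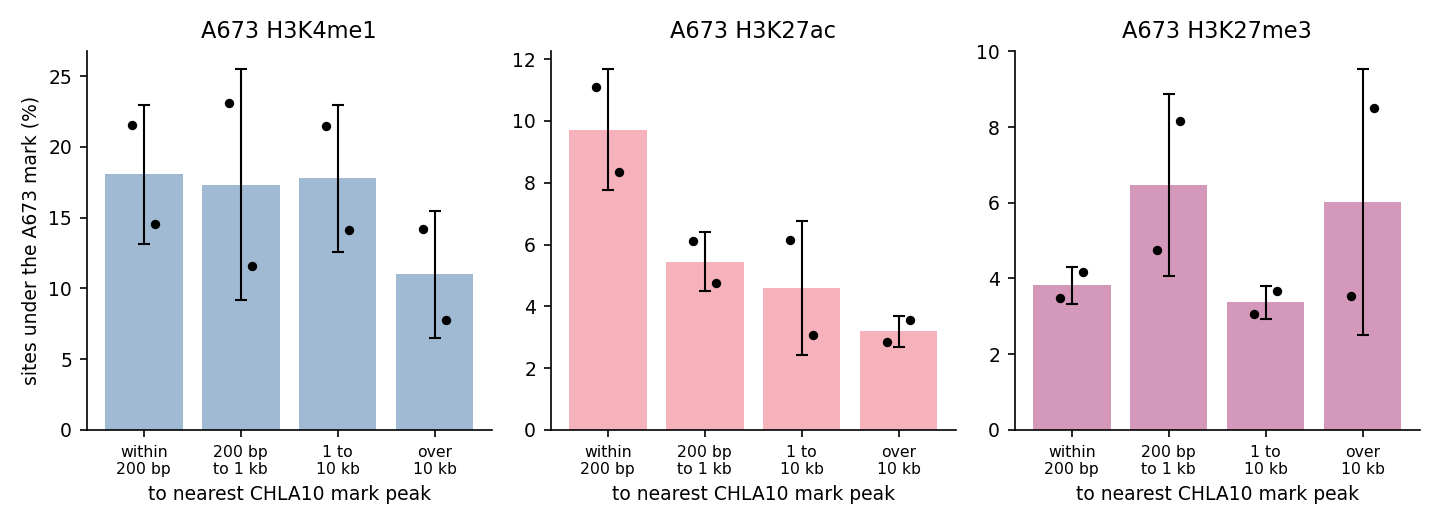
Share of the CHLA10-only unmarked sites under A673 H3K4me1, H3K27ac and H3K27me3, by distance to the nearest CHLA10 mark peak; bars are means of 2 A673 libraries, error bars SDs and points the libraries. H3K27ac is at 9.72% within 200 bp and at 3.19% beyond 10 kb, and H3K27me3 has no order.

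The place of the sites relative to genes depended on which genes are counted. Inside a protein-coding gene were 228 of 595 (38.3%, 95% interval 34.4% to 42.4%), against 47.2% of all CHLA10 HOXD13 peaks and 50.5% of CHLA10-only peaks with a mark. Within 1 kb of a gene boundary were 7 (1.18%), against 2.81% of all. The median distance to a boundary was 101 kb, against 64.1 kb for CHLA10-only peaks with a mark, 82.7 kb for shared peaks without one and 39.6 kb for shared peaks with one. More than 500 kb from any protein-coding boundary were 83 sites (13.9%), against 9.39% of all CHLA10 HOXD13 peaks. The share was 8.1% for CHLA10-only peaks with a mark, 10.8% for shared peaks without one and 4.62% for shared peaks with one. With all annotated genes, noncoding ones included, 55.5% of the sites lay inside a gene and the median distance to a boundary was 19.2 kb. CHLA10 marks cluster at genes, and the rule removes marked peaks, so distance from genes and absence of marks cannot be told apart.

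Most of the sites stood alone. At gaps of up to 100 kb, 482 had no other such site in reach, there were 44 pairs, and 8 groups held 3 or more. Another CHLA10 HOXD13 peak of any class lay within 1 kb of 137 sites (23.03%), and joining sites within 1 kb left 553 separate places. The largest group had 4 sites over 100.4 kb near FAM124B (chr2:224266583-224366943), with −log10 q of 49.1, 32.2, 14.5 and 9.55. All 4 were under A673 H3K4me1 in at least 1 library, and the strongest was also under A673 H3K27ac in replicate 2. The other 7 groups had 3 sites each, near ATP2B1, CARMIL1, C3orf38 and CSNK2A2IP, DIPK2A, LRRCC1, CFAP47 and ZNF37A. The 3 sites of the ATP2B1 group were under A673 H3K4me1 in replicate 1, 2 of the 3 CARMIL1 sites were under it in both libraries, and no site of the DIPK2A, LRRCC1, CFAP47 and ZNF37A groups had an A673 mark.

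The protein-coding gene nearest to each site, where its boundary was within 100 kb, gave 268 genes, 1.34% of all 19970. At their ends H3K4me3 was the commonest mark, in both libraries of CHLA10 at 72.4% (interval 66.6% to 77.7%) and of A673 at 70.9%, against 63.9% and 64.3% of all genes. The genes nearest to the other 3 classes had CHLA10 H3K4me3 at 72.6%, 74.1% and 75.3%, so the value at the sites was close to that of any CHLA10 HOXD13 peak. H3K27ac was present in both CHLA10 libraries at 19.0% of the 268, against 17.7% of all genes and 27.8% of the genes nearest to CHLA10-only peaks with a mark. In single CHLA10 libraries it was present at 29.9% in replicate 1 and 25% in replicate 2, against 30.8% and 20.9% of all genes, so the order against all genes turned between the libraries. In both A673 libraries it was present at 4.85%, against 7.69% of all. H3K4me1 was present in both libraries at 10.4% in A673 and 1.87% in CHLA10, against 9.59% and 1.11% of all.

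H3K27me3 at these genes was called more often in A673 than in CHLA10. In both A673 libraries 40 of the 268 gene ends carried it (14.9%, interval 10.9% to 19.8%), against 11.8% of all genes, and in both CHLA10 libraries 12 (4.48%, interval 2.33% to 7.69%), against 10.9% of all. In single CHLA10 libraries the share was 5.97% in replicate 1 and 7.09% in replicate 2, against 13.2% and 13.3% of all genes, and among genes within 10 kb of a site it was 1.59% for a call in both libraries. Counting genes with the mark in both libraries of one line and neither of the other, 28 (10.4%, interval 7.06% to 14.7%) had H3K27me3 in A673 alone, against 3.86% of all genes. In CHLA10 alone it was present at 1 of the 268 (0.373%), ZNF385D, against 3.01% of all. The CHLA10 H3K27me3 lists are the longer ones, covering 195 and 206 Mb against 141 and 192 Mb in A673. The same direction held at the genes nearest to CHLA10-only peaks with a mark, of which 44 of 532 (8.27%) had H3K27me3 in A673 alone and 1 (0.188%) in CHLA10 alone. It held too at those nearest to shared peaks with a mark, with 13 and 1 of 215. At the 85 genes nearest to shared peaks without a mark the counts were 4 and 3. The intervals of the 2 CHLA10-only classes overlap. The rule excludes sites under CHLA10 H3K27me3 and sets no limit on A673 H3K27me3. Its share in the difference between the lines at these genes was not tested. Over the 971 genes nearest to all CHLA10 HOXD13 peaks, CHLA10 H3K27me3 stood at 3.09% in both libraries and A673 H3K27me3 at 11.0%. CHLA10 H3K27me3 stood at 2.07% of the genes nearest to CHLA10-only peaks with a mark and at 3 of the 215 nearest to shared peaks with a mark.

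Of the 28 genes with H3K27me3 in A673 alone, 23 carried H3K4me3 in both CHLA10 libraries, 22 in both A673 libraries, and none CHLA10 H3K27ac in both libraries. Over all 268 genes the shares were 72.4%, 70.9% and 19.0% in the same order. The site itself was under A673 H3K27me3 at 7 of the 28. The genes, ordered by the strength of their site and named after their values were seen, begin with ALDH1A1, BICC1, an RNA-binding protein gene of left-right patterning, GABRA2, PELI2, LRRC9 and HPGD, the enzyme that inactivates prostaglandins, with HOXD13 −log10 q of 157, 85.1, 83.6, 78.0, 72.6 and 62.8. Further down are CD55, a complement regulator, the semaphorin receptor gene PLXNC1, the matrix genes EDIL3 and NTN4, and DDIT4L, with −log10 q from 6.72 to 52.9. DDIT4L combined H3K27me3 in A673 alone with H3K4me3 in CHLA10 alone.

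For H3K27ac the gene ends differed in the other direction. In CHLA10 alone 26 of the 268 (9.70%, interval 6.44% to 13.9%) carried it, against 8.4% of all genes, and in A673 alone 1, LRRC75A (0.373%), against 2.23% of all. The share in CHLA10 alone was near that of all genes. At 16 of the 26 genes the site lay within 1 kb of a CHLA10 mark. At 6 of the 26 the site itself was under A673 H3K27ac in at least 1 library, so the difference between the lines is one of gene ends. The strongest sites were near C21orf91, NDUFB3, FIGN and the MYC partner gene MAX, with −log10 q from 74.2 to 88.7. The retinoid-binding protein gene CRABP1 was also among the 26, with a site of 58.4 whose DNA was under A673 H3K27me3 in replicate 2. For H3K4me3, 8 genes had it in CHLA10 alone (2.99%), against 1.98% of all, and 5 in A673 alone (1.87%), against 1.96%. The 8 were FMOD, ROBO2, CDKL2, ZNF704, RAB38, CDH10, PHACTR1 and DDIT4L. H3K4me1 was in A673 alone at 20 (7.46%) against 7.69% of all, and in CHLA10 alone at 3 (1.12%) against 0.26%, with A673 H3K4me1 lists that cover 74.5 and 51.6 Mb against 9.63 and 11.3 Mb in CHLA10. The low repeat between the CHLA10 H3K4me1 replicates (25.3% of the shorter list) limits the CHLA10 count.

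**Figure D5:**
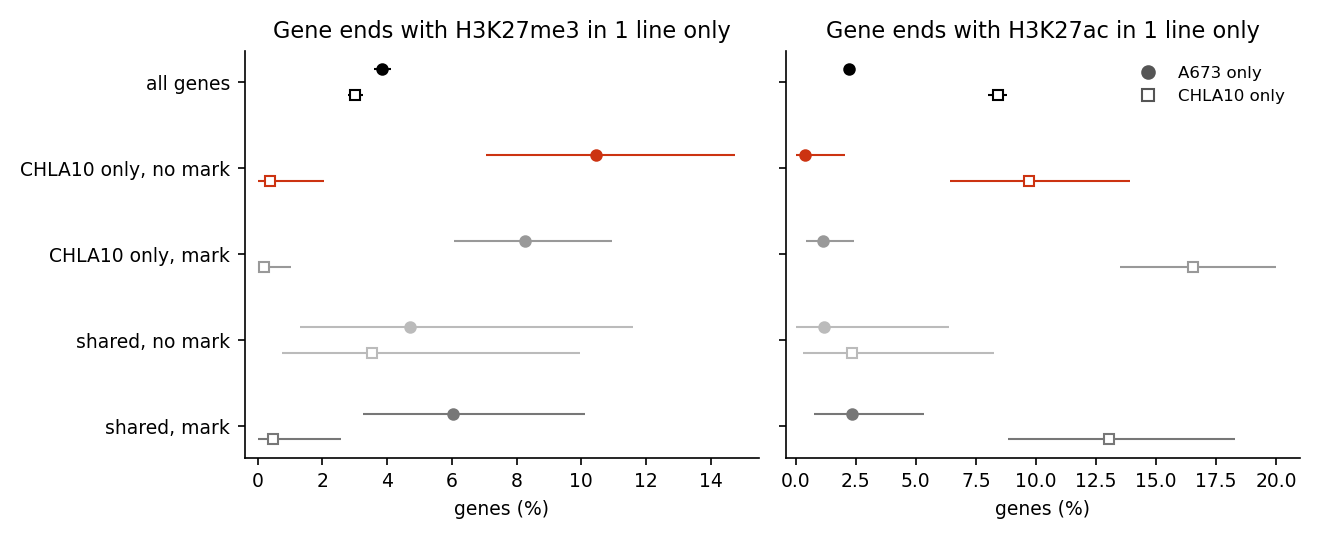
Share of genes whose ends carry H3K27me3 (left) or H3K27ac (right) in both libraries of 1 line and in neither of the other, for all protein-coding genes and for those nearest to each class of CHLA10 HOXD13 peak; filled circles are A673 alone, open squares CHLA10 alone, bars exact 95% binomial intervals. Near the CHLA10-only unmarked sites H3K27me3 stands at 10.4% in A673 alone and 0.373% in CHLA10 alone.

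Named gene lists held few of the 268 genes. Of 50 HOX genes and cofactors, 1 was nearest to a site, HOXC11, where a weak site (−log10 q 6.96) lay 1.55 kb from the gene under A673 H3K4me1 in both libraries. Of 45 limb patterning genes, 2 were, ALX1 and the hedgehog transcription factor gene GLI3, which held 2 sites inside the gene with −log10 q of 18.7 and 9.17. Both GLI3 sites were under A673 H3K4me1 of replicate 1, and the weaker was also under replicate 2 and under H3K27ac of replicate 1. An A673 HOXD13 peak lay 114 bp from the stronger.

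Of 35 genes known as activated by EWS-FLI1, 3 were nearest to a site: PAPPA, a protease gene of the IGF pathway, the receptor kinase gene KIT and the sphingolipid gene KDSR, with −log10 q of 31.5, 16.04 and 9.28. Of 30 known as repressed by EWS-FLI1, 2 were, ANXA1, an annexin gene with 2 sites of 60.9 and 15.8, and CAV2. The ANXA1 gene end carried H3K27ac in both CHLA10 libraries, and its stronger site lay 86 bp from CHLA10 H3K27ac and under A673 H3K4me1 in replicate 1. The ANXA1 and ALDH1A1 sites lie on the same arm of chromosome 9, at chr9:73180052-73180529 and chr9:72996195-72996683.

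Of 70 developmental transcription factor genes, 3 were nearest to a site, among them the neurogenic gene NEUROD1 (−log10 q 64.8) and the neural crest and muscle gene PAX3 (9.17). The PAX3 site was under H3K4me1 and H3K27ac in all 4 A673 libraries and lay 70 bp from CHLA10 H3K27ac. NEUROD1 carried H3K27me3 at its end in both libraries of both lines. Of 50 neuronal adhesion and synapse genes 1 was nearest to a site (ROBO2), of 49 WNT pathway genes 1 (LGR5), of 43 TGF-beta and BMP pathway genes 1 (the activin receptor gene ACVR2A), and of 36 mesenchymal matrix and adhesion genes none. The shares of these lists run from 0% to 8.57%, beside the 1.34% of all genes. With at most 3 genes in a list they are counts and carry no test.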

How the data were processed

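The authors deposited 18 peak lists, 1 per library for HOXD13 and the marks, called per library. Tools in the submitters' processing notes are Bowtie2, bedtools, MACS2 and SEACR 1.2, with no roles, and the build given there is hg38. Per the file headers (peak names), narrow peaks were called against IgG, and H3K27me3 as broad peaks without a control; its shortest deposited peak is 2000 bp. The deposited columns hold a fold enrichment (ratio), −log10 p-value and −log10 q-value per peak, a score equal to the −log10 q-value times 10 cut to a whole number, and the summit position of narrow peaks. Read depth is unknown. Lists of the 2 lines were called separately, so an overlap carries any difference in calling and selection between them.

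Peaks overlapped when they shared at least 1 bp. The 95% binomial intervals are exact (Clopper-Pearson) and speak to counting error alone. Genes (protein-coding, boundaries without strand) and promoter sequences came from RefSeq, GRCh38.p14, with promoters of chromosome 8 not analysed here; the nearest gene boundary within 100 kb gave the assigned gene. No p-value was computed: peaks and genes are not replicates, and values are given per library as a description. The overlap routine was tested on simulated intervals against bedtools 2.31.1; the rest used pandas 2.3.3 and SciPy 1.17.1 under Python 3.11.15.

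The sites and the 9 gene lists were chosen with earlier results of these data known. Sites were named by rule: the 10 highest by −log10 q, per A673 mark the 4 highest called in both libraries (in 1 where fewer), at most 3 list genes each, the 5 longest, the largest groups of 3 or more, and the nearest to each edge of the rule. The rule asked for the 5 largest groups; 7 groups tied at 3 sites, so all 8 are named. Genes with a mark in 1 line were named outside it. Of the sites this rule names, 2 are not reported here. The alternatives tried are given with their effect in the closing section. The planned motif search under the peaks was not run, as no genome sequence was used here.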

Additional observations from a re-analysis of the deposited data

How the results depend on the processing

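The number of sites depended on the overlap rule. Requiring 50% of a peak to be covered gave 906 sites, requiring a mark in both CHLA10 libraries gave 972, excluding anything within 1 kb gave 297, and the upper 50% of the HOXD13 list by q gave 312, against 595. Leaving out 1 CHLA10 mark library at a time gave 597 to 771, the highest without H3K27ac replicate 1. The share with any A673 mark (33.6%) became 24.9% with 50% coverage and 50.6% with 1 kb on each side. Under the other definitions of the sites it ran from 30.6% to 36.8%, and from 33.4% to 35.9% leaving out a library. The share inside genes (38.3%) became 55.5% with all annotated genes, 42.7% with a mark required in both CHLA10 libraries, and 38.1% to 41.1% leaving out a library. CHLA10 H3K4me3 at the assigned genes ran from 72.8% to 73.5% leaving out a library, and the share of genes with H3K27me3 in A673 alone (10.4%) from 7.94% to 11.1% over 7 alternatives. The median distance to a boundary was 19.2 kb with all annotated genes. CHLA10 H3K27ac at the assigned genes (19.0%) was 25% to 29.9% with 1 library, and CHLA10 H3K27me3 (4.48%) was 5.97% to 7.09%. Of 17 alternatives for each A673 mark, H3K27ac moved beyond its SD under 5, H3K4me3 under 3, H3K4me1 under 1 and H3K27me3 under 0. The alternatives that leave out an A673 library of the mark cannot move beyond this SD. A mark whose libraries differ more also has a wider SD, so these counts do not rank the marks by stability. No test was made, so no replicate block was fitted; class shares are given within each A673 library. The planned motif windows were not run. HOXD13 has 1 library per line, and read depth is unknown, so an absent peak may be a site below the caller's limit in that library.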

Other observations

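The share of CHLA10 HOXD13 peaks that were CHLA10-only and unmarked ran from 4.76% on chromosome 16 (1 of 21 peaks) to 41.2% on chromosome 9 (28 of 68). The next highest were chromosome 10 at 37.5% (27 of 72), chromosome 19 at 35.3% (6 of 17) and chromosome 4 at 34.0% (66 of 194). The next lowest was chromosome 21 at 12.5% (4 of 32). The number of peaks per chromosome belongs to 1 library, and no test was made.

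The strong site at the LOC105376065 promoter lay 324.5 kb from the nearest protein-coding boundary, that of CNTNAP3B, and 77.4 kb from the nearest CHLA10 mark. No other promoter window in the RefSeq table shared any run of 20 bases with its 300 bases. Promoter windows alone were searched, so this cannot show whether the sequence has copies elsewhere in the genome. The group near ZNF37A on chromosome 10 held 3 weak sites within 0.787 kb, with −log10 q from 2.79 to 3.61, and no CHLA10 mark within 124 kb.

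The site near PLCXD1 and the site inside FAM210A had the same −log10 q (15.2) and the same fold enrichment (10.8), although they lie on different chromosomes and differ in length (2214 and 1448 bp).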
